A study of Mus musculus with 23 samples.

Results

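The genes described here make the sulfate donor of the cell or use it on small molecules in the cytosol. They are *Papss1* and *Papss2*, and the sulfotransferases *Sult1a1*, *Sult1b1*, *Sult1c2*, *Sult1d1*, *Sult1e1*, *Sult2a1*, *Sult3a1* and *Sult5a1*. They were found on the array by their gene name, as 10 genes with 17 probes among 37074 gene names and 56605 probes. Of these, 8 genes with 13 probes passed the filter on dim probes and were tested. *Sult2a1* and *Sult3a1* were not tested, since their probes were near background in almost every liver.

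Transcripts were measured in the livers of 23 male mice with 1-colour Agilent arrays, 1 for each mouse. Wild-type (WT) C57BL/6J mice were purchased at 6 weeks of age. *Pxr*-/- mice, backcrossed on the C57Bl/6J background, had been bred in the facility for 10 years, so genotype and colony cannot be told apart. The age of the *Pxr*-/- mice is not given in the sources used here. Mice of both genotypes were acclimatised for 2 weeks. Mice received pregnenolone 16α-carbonitrile (PCN), a ligand of the nuclear receptor PXR in rodents, at 100 mg/kg in corn oil by daily intraperitoneal injection for 4 days, or corn oil alone, and were killed 6 h after the final dose. With PCN there were 5 WT (WT PCN) and 6 *Pxr*-/- mice (*Pxr*-/- PCN), and with corn oil alone 6 of each genotype (WT CONT and *Pxr*-/- CONT). *Pxr*-/- mice lack the receptor in every cell type, not in hepatocytes alone. In whole liver, fewer cells of a type and less RNA per cell cannot be told apart.

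Sulfonation attaches a sulfate group to drugs, steroids, bile acids, thyroid hormones and catechols, which usually makes them more water-soluble and less active. The donor, PAPS, is built from sulfate and ATP by the bifunctional PAPS synthases, which *Papss1* and *Papss2* encode. *Papss2* is the main PAPS synthase of liver. The SULT1 enzymes act mainly on phenols and oestrogens, and the SULT2 enzymes on hydroxysteroids and bile acids. PXR is a sensor of foreign chemicals and steroids, and sulfonation is among the conjugation steps it is known to regulate in liver.

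The values below are log2 signals, quantile normalized, on the arbitrary scale of the scanner. A gene was called when its adjusted p-value (limma, Benjamini-Hochberg over 32087 probes) was at most 0.05 and its fold change was above 1.5. The known PXR target *Cyp3a11* rose by 3.55 in WT mice (limma adjusted p = 4.12e-10) and its change in *Pxr*-/- mice was 0.31 (adjusted p = 0.431). The *Nr1i2* probe, the gene that encodes PXR, did not separate the genotypes (-0.04 in control mice, 95% interval -0.61 to 0.54), and whether it lies within the deleted part is not known from the sources used here. The arrays resembled each other closely, with 29510 to 33321 probes well above background. The summed level of 6 hepatocyte markers, in which bright markers weigh most, was between 19.33 and 19.74 in all mice. Among them *Apoa1* was called higher with PCN in *Pxr*-/- mice (0.62, limma adjusted p = 9.55e-04). *Apob* fell by 0.52 in WT mice (limma adjusted p = 1.25e-05), under the fold threshold. For 6 stellate cell markers the summed level was 11.51 to 12.13 in WT CONT and 12.42 to 14.04 in WT PCN mice. In *Pxr*-/- mice it was 11.54 to 12.10 without PCN and 11.63 to 13.43 with it. Of these 6 stellate cell markers only *Col1a1* and *Col3a1* were called higher with PCN, in both genotypes. The median log2 change of the 6 was 0.25 in WT and 0.11 in *Pxr*-/- mice. Of 5 cholangiocyte markers, *Sox9* was called higher in WT mice, and 4 of 5 had a change above 0 in each genotype. The median log2 change of the 5 was 0.725 in WT and 0.624 in *Pxr*-/- mice. The part of these cells in the results below was not tested.

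Each level was read by probes of 60 bases. The first 30 bases of those behind the called genes are shown 5′ to 3′, with the whole probe's position, because each result on these genes rests on what they bind.
*Papss2*, probe used, mm9 chr19:32741618-32741677: ataactgtttcagtgtcccgctggtacctg
*Papss2*, other probe, mm9 chr19:32737712-32737771: atgaaacagcatacagctgtactggaggaa
*Papss1*, mm9 chr3:131306415-131306474: gtaagggggaaaaaatcactaaacaataaa
*Sult1c2*, mm9 chr17:53969205-53969264: cctgaaagcaaactgtaaaggccaaagatt
*Sult1d1*, probe used, mm9 chr5:87984658-87984717: acacagtatatttttagttttagttcctaa
*Sult1d1*, other probe, mm9 chr5:87985008-87985067: aggcgattggaagaatcagttcactgtagc
*Sult1e1*, mm9 chr5:88005187-88005246: aatggagctctgagccacttccttgtgtct
At the best placement without gaps, these 7 probes matched a probe of another gene of the family at 24 to 27 of 60 positions. Only probes were compared with each other, not whole transcripts. Whether they bind transcripts of other genes was not tested.

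PCN raised 3 of the 8 tested genes in WT mice, *Papss2*, *Sult1e1* and *Sult1d1*, and lowered none of them. Over all 21056 genes tested, 3.79% were called higher and 2.39% lower. The median log2 change of the 8 genes was 0.34, against -0.02 over all genes, and 7 of 8 were above 0. In *Pxr*-/- mice 0 of 8 genes were called higher and 1, *Sult1c2*, was called lower, where 1.42% and 0.86% of all genes were called. The median change there was 0.26, against -0.01 over all genes. The 2 comparisons share no mice, but they come from the same fit and share its estimates of the spread and of the washing batch.

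*Papss2* was the gene with the clearest separation. In WT CONT mice its level ran from 13.36 to 14.39 with a median of 13.60. The 5 WT PCN mice were at 14.89, 14.97, 15.30, 15.24 and 15.01. All WT PCN mice were above all WT CONT mice. The change was 1.33 (SE 0.15), a rise of 2.51-fold (limma adjusted p = 2.03e-06). In *Pxr*-/- mice the level ran from 14.46 to 15.10 (median 14.75) without PCN and from 15.16 to 15.57 (median 15.31) with PCN. Again the groups did not overlap, but the difference was smaller, at 0.58 (95% interval 0.29 to 0.86). With a fold of 1.49 it lay just under the fold threshold (adjusted p = 0.0162). The fold was past the threshold without any 1 of 6 *Pxr*-/- mice (CONT 2, 4 or 5, or PCN 1, 4 or 6), with log2 changes of 0.59 to 0.67, and with the authors' deposited values (0.62, adjusted p = 0.0221).

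The other *Papss2* probe lies nearer to the 5′ end of the transcript and gave the same order of groups. It was missing on 1 WT CONT array through an outlier flag. The other 5 WT CONT mice were at 8.47, 9.02, 9.15, 9.30 and 8.83, and the WT PCN mice were at 10.18, 10.30, 10.48, 10.77 and 10.42. It rose by 1.47 in WT mice (limma adjusted p = 2.01e-06) and by 0.66 in *Pxr*-/- mice, where it was called (adjusted p = 0.00880).

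*Papss2* also differed between the control groups. It was the 1 tested gene of the 8 called higher in *Pxr*-/- CONT than in WT CONT mice, where 0.228% of all genes were called higher, and 0 of 8 were called lower, where 0.0807% were. The difference was 0.98 (SE 0.14), or 1.97-fold (limma adjusted p = 7.79e-04), and every *Pxr*-/- CONT mouse was above every WT CONT mouse. The range of the *Pxr*-/- CONT mice, without PCN, overlapped that of the WT PCN mice. Under PCN the genotypes overlapped, with a difference of 0.23 (95% interval -0.08 to 0.53, adjusted p = 0.361).

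The test of whether the PCN effect differed between genotypes called 0 of the 8 genes in either direction, where 0.807% of all genes were called in favour of WT mice and 0.242% in favour of *Pxr*-/- mice. At an unadjusted p under 0.05 there were 2, *Papss2* and *Sult1c2*, both in favour of WT mice, where 15.1% of all genes passed in either direction and 7.86% in favour of WT mice. For *Papss2* the difference of the PCN effects was 0.75 (95% interval 0.34 to 1.17, limma adjusted p = 0.0661). The other *Papss2* probe was not called either (0.815, limma adjusted p = 0.0592). The value of the probe used sat near the threshold and passed it under several settings. With 1 array left out it passed in 3 of 23 fits, and without WT PCN mouse 4 it was 0.70 (adjusted p = 0.112). It was 0.95 (adjusted p = 0.0263) with the deposited values and 0.86 (adjusted p = 0.0128) without WT CONT mouse 2, which had the highest *Papss2* level of its group. It passed too without WT CONT mouse 4 (0.81, adjusted p = 0.0428) and without *Pxr*-/- CONT mouse 6 (0.82, adjusted p = 0.0486). In the washing batches it was 1.09 and 0.40, neither of them called.

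**Figure D1:**
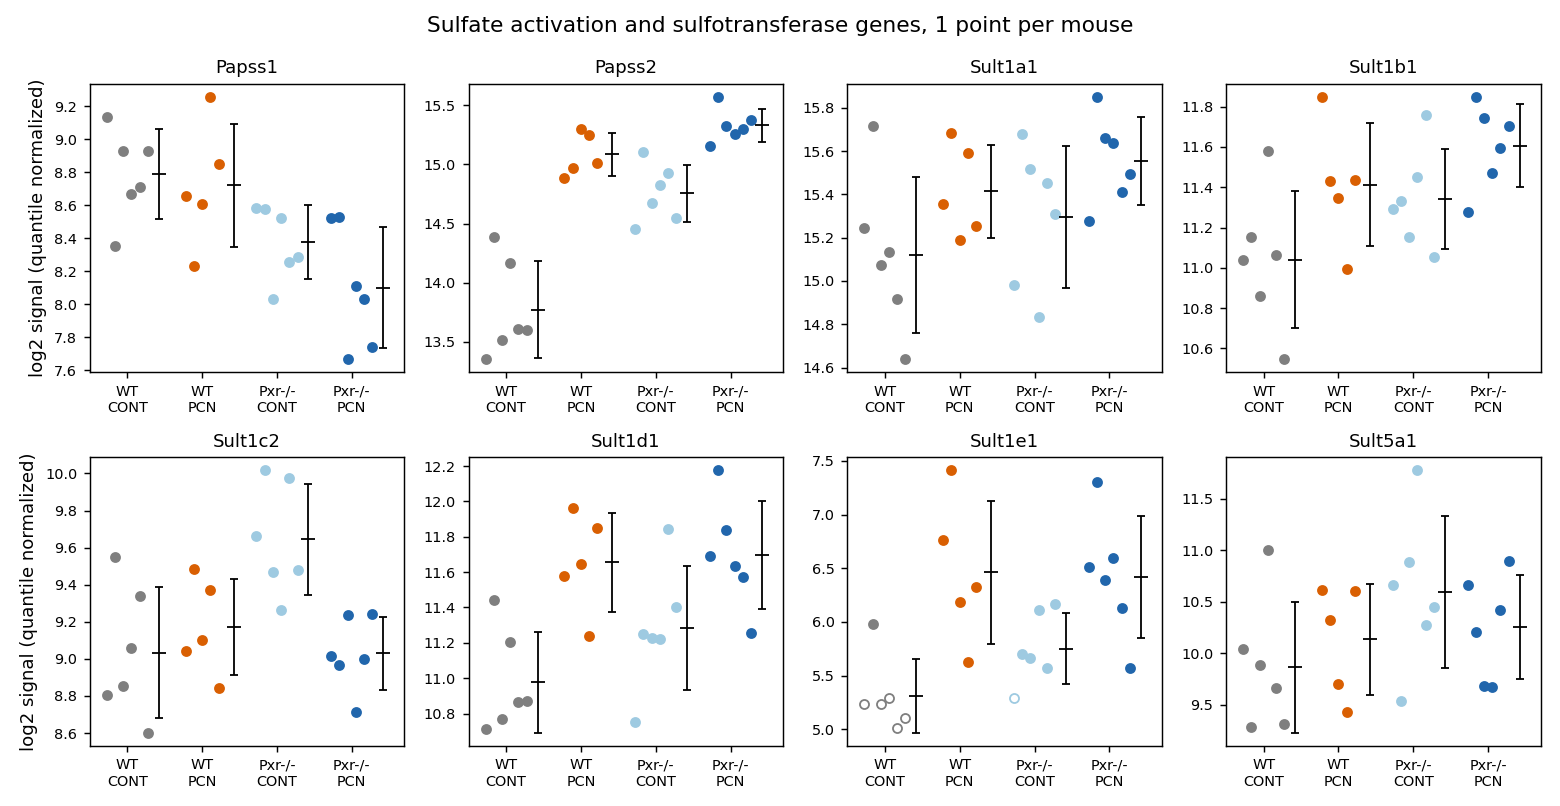
Quantile-normalized log2 signal (y axis) of the 8 tested genes in the 4 groups (x axis), 1 point per mouse; open points are not well above background, and the black bars beside each group give the mean and SD. For *Papss2*, WT CONT mice lie at 13.36 to 14.39 and every other mouse lies higher, and for *Sult1c2* the *Pxr*-/- CONT mice lie above the *Pxr*-/- PCN mice.

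*Papss1*, the other PAPS synthase gene, was not called for PCN in either genotype. It ran from 8.35 to 9.14 (median 8.82) in WT CONT mice, and the WT PCN mice were at 8.66, 8.23, 8.61, 9.26 and 8.85. Its change in WT mice was -0.09 (95% interval -0.43 to 0.24), and in *Pxr*-/- mice it was -0.28 (-0.60 to 0.04). With PCN the *Pxr*-/- mice ranged from 7.67 to 8.53 (median 8.07), and the groups of the 2 genotypes overlapped. Between *Pxr*-/- PCN and WT PCN mice it differed by -0.59 (95% interval -0.93 to -0.26), a fold of 1.51 (limma adjusted p = 0.0279). It was the 1 gene of 8 called lower in that comparison, where 1.36% of all genes were called, and 0 of 8 were called higher, where 0.731% were. This call was lost without any 1 of WT PCN mouse 3, 4 or 5 or *Pxr*-/- PCN mouse 3, 5 or 6, with values of -0.47 to -0.59 and adjusted p-values of 0.0525 to 0.0901. The difference in control mice was -0.41 (adjusted p = 0.313).

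*Sult1e1* encodes oestrogen sulfotransferase, which inactivates oestrogens. Its probe was dim. Among WT arrays it was detected well above background on 1 of 6 without and 5 of 5 with PCN, and among *Pxr*-/- arrays on 5 of 6 and 6 of 6. In WT CONT mice it ran from 5.01 to 5.98 with a median of 5.24, and the WT PCN mice were at 6.76, 7.41, 6.18, 5.63 and 6.32. The groups overlapped through WT CONT mouse 2, at 5.98, and WT PCN mouse 4, at 5.63. The rise was 1.18 (SE 0.27) (limma adjusted p = 0.00300), with only 1 of 6 WT CONT arrays measured above background. Its size was not fixed by these data, since it was 2.48 with the scanner's processed signal and 0.77 with normexp background correction, called in both (adjusted p = 0.00220 and 0.00540). Without WT CONT mouse 2 it was 1.28 (adjusted p = 0.00219). *Pxr*-/- mice went from 5.29 to 6.16 (median 5.68) without PCN and from 5.57 to 7.30 (median 6.45) with it. The change of 0.67 was not called (95% interval 0.14 to 1.20, adjusted p = 0.123), but it was without *Pxr*-/- PCN mouse 6, the lowest of its group (0.87, adjusted p = 0.0262). The difference of the PCN effects was 0.51 (-0.26 to 1.28, adjusted p = 0.574).

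*Sult1d1* encodes an enzyme that acts on catecholamines and other phenols in the mouse. It was at 10.71 to 11.44 (median 10.87) in WT CONT mice, and the WT PCN mice were at 11.58, 11.96, 11.65, 11.24 and 11.85. All but WT PCN mouse 4 were above every WT CONT mouse. The rise was 0.71 (SE 0.16), or 1.63-fold (limma adjusted p = 0.00283), and the other probe rose by 0.74 (adjusted p = 0.00225). In *Pxr*-/- mice the level ran from 10.75 to 11.84 (median 11.24) without PCN and from 11.26 to 12.18 (median 11.66) with it. The groups overlapped and the change of 0.41 was not called (95% interval 0.10 to 0.73, adjusted p = 0.107). The difference of the PCN effects was 0.29 (-0.16 to 0.75, adjusted p = 0.589), so a difference between the genotypes was not shown for *Sult1d1*.

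The washing batches were small. In the first, with 3 mice per group, all 3 genes were called in WT mice, at 1.56 for *Papss2*, 1.08 for *Sult1e1* and 0.78 for *Sult1d1*. In the second, with 2 WT PCN mice, the changes were 1.09, 1.34 and 0.63, and only *Papss2* was called (limma adjusted p = 0.0233). The difference in *Papss2* between the control groups was 1.30 in the first batch (adjusted p = 0.00743) and 0.66 in the second (adjusted p = 0.151).

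*Sult1c2*, a further member of the SULT1 family, moved in *Pxr*-/- mice and not by a called amount in WT mice. The *Pxr*-/- CONT mice ran from 9.27 to 10.02 (median 9.57) and the *Pxr*-/- PCN mice from 8.71 to 9.24 (median 9.01), with no overlap. With PCN it fell by 0.62 on the log2 scale (95% interval -0.94 to -0.29), a fold of 1.53 (limma adjusted p = 0.0226). The call was lost without *Pxr*-/- CONT mouse 2 (-0.53, adjusted p = 0.0479, under the fold threshold), without *Pxr*-/- CONT mouse 5 (-0.55, adjusted p = 0.0593), without *Pxr*-/- PCN mouse 4 (-0.55, adjusted p = 0.0682) and with the deposited values (-0.57, adjusted p = 0.0615). In the washing batches the change was -0.56 and -0.67, not called in either. WT CONT mice ran from 8.60 to 9.55 (median 8.96), and WT PCN mice were at 9.04, 9.49, 9.10, 9.37 and 8.85. They overlapped throughout, with a change of 0.14 (-0.21 to 0.48). The difference of the PCN effects was 0.75 (0.28 to 1.23, adjusted p = 0.109) and that between the control groups 0.61 (0.28 to 0.94, adjusted p = 0.104). Without WT CONT mouse 2 both were called, at 0.85 (adjusted p = 0.0462) and 0.72 (adjusted p = 0.0357).

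*Sult1a1*, a broad phenol sulfotransferase, was bright in all livers, with a range of 14.64 to 15.85. Its changes were 0.31 (95% interval -0.02 to 0.64, limma adjusted p = 0.177) in WT and 0.26 (-0.06 to 0.58, adjusted p = 0.341) in *Pxr*-/- mice. *Sult1b1*, which acts on thyroid hormones, ranged from 10.55 to 11.85 and changed by 0.38 (0.04 to 0.71, adjusted p = 0.0992) and 0.27 (-0.05 to 0.58, adjusted p = 0.333). Neither gene was called in any of the comparisons, and their second probes gave changes of 0.33 and 0.37 in WT mice. *Sult5a1* had the widest spread among mice, from 9.28 to 11.78, with an SD of 0.51 to 0.74 within groups. Its changes of 0.27 (-0.46 to 0.99) and -0.34 (-1.03 to 0.35) could not be told from 0 at this spread.

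**Figure D2:**
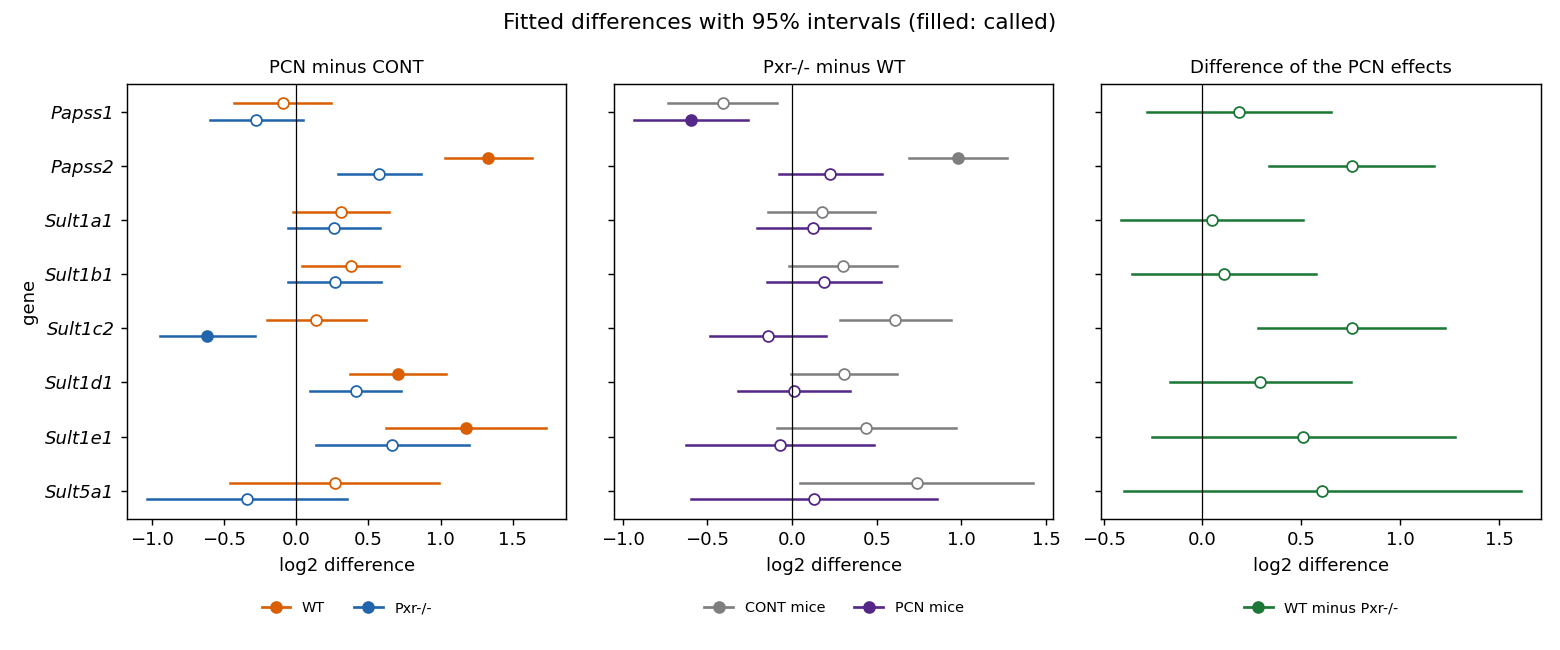
Fitted log2 differences (x axis) of the 8 tested genes (y axis) for PCN minus CONT within each genotype, for *Pxr*-/- minus WT under each treatment, and for the PCN effect in WT minus that in *Pxr*-/- mice; lines are 95% intervals and filled points are called. The *Papss2* interval lies above 0 in both genotypes (1.03 to 1.63 in WT, 0.29 to 0.86 in *Pxr*-/- mice), and no point is filled in the last panel.

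*Sult2a1* encodes a hydroxysteroid and bile acid sulfotransferase that is known to be far more abundant in female than in male mouse liver. Its probe exceeded background on 2 of 23 arrays. The 6 WT CONT mice were at 4.58 to 4.94 and the *Pxr*-/- CONT mice at 4.58 to 4.87, none of them above background. The WT PCN mice were at 4.74, 5.01, 4.68, 7.11 and 4.58, and the *Pxr*-/- PCN mice at 4.43 to 5.63. The 2 arrays above background were those of WT PCN mouse 4, at 7.11, and *Pxr*-/- PCN mouse 4, at 5.63. No fold is given for *Sult2a1*, since no group had more than 1 array above background. *Sult3a1*, an amine sulfotransferase, was likewise well above background on 1 of 23 arrays with one probe (WT PCN mouse 2, at 5.67) and on 0 of 23 with the other, which ranged from 4.50 to 5.15.

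The *Sult2a1* probe cannot be assigned to a single gene, because *Sult2a* genes are near copies. The array's annotation lists transcripts of *Sult2a1* and *Sult2a4* for it. It matched the *Sult2a2* probe at 54 of 59 overlapping positions and the *Sult2a4* probe at 51 of 54. The last bases of these 3 probes are shown on the frame of the *Sult2a1* probe, with bases that differ from it in capitals.
*Sult2a1* probe: atgtggtcatagaataaaacctgttgtgga
*Sult2a2* probe: atAtggtcatagaataaaacctgttgtgg
*Sult2a4* probe: atgtggtcatagaataaaTcctgttCtgga
In WT PCN mouse 4 the *Sult2a2* probe was at 9.30, the *Sult2a4* probe at 5.68 and 1 *Sult2a6* probe at 6.74, all well above background. This *Sult2a6* probe shares 19 of 59 positions with the *Sult2a1* probe, and the array lists *Sult2a1* and *Sult2a5* transcripts besides *Sult2a6* for it. The other *Sult2a6* probes were at 4.67 and 4.54 in this mouse, not well above background. In all other mice the *Sult2a1*, *Sult2a2* and *Sult2a4* probes and the first *Sult2a6* probe did not exceed 5.63. WT PCN mouse 4 also had the lowest *Sult1d1* and *Sult1e1* levels of its group and the highest *Papss1* level, at 9.26. Without it the WT changes were still called for *Papss2*, *Sult1d1* and *Sult1e1*.

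A probe for another gene of this cluster, *Sult2a7*, was bright enough to test and is not a near copy of the *Sult2a1* probe (24 of 59 positions). The array's annotation lists transcripts of *Sult2a7* alone for it, and whether it binds other transcripts was not tested. *Sult2a7* ran from 7.77 to 9.77 in WT CONT mice. The WT PCN mice were at 10.36, 11.21, 11.74, 9.98 and 10.79, all above them. The rise was 2.24 (SE 0.37), or 4.73-fold (limma adjusted p = 1.88e-04). *Pxr*-/- mice were at 7.56 to 9.86 without and 8.16 to 9.44 with PCN, a change of -0.07 (95% interval -0.80 to 0.65). The PCN effects differed by 2.31 (1.26 to 3.37, adjusted p = 0.0198). The difference was 1.17 in the first washing batch (adjusted p = 0.392) and 3.61 in the second (adjusted p = 0.0440). *Sult2a8*, a bile acid sulfotransferase of mouse liver, went the other way, and fell by 0.69 in WT mice (adjusted p = 0.0132). Without WT PCN mouse 4, which at 14.09 was the lowest of all mice, its change was -0.49 and under the fold threshold, as it was with the deposited values (-0.43). In *Pxr*-/- mice *Sult2a8* changed by 0.10, and its PCN effects differed by -0.79, not called (adjusted p = 0.155).

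**Figure D3:**
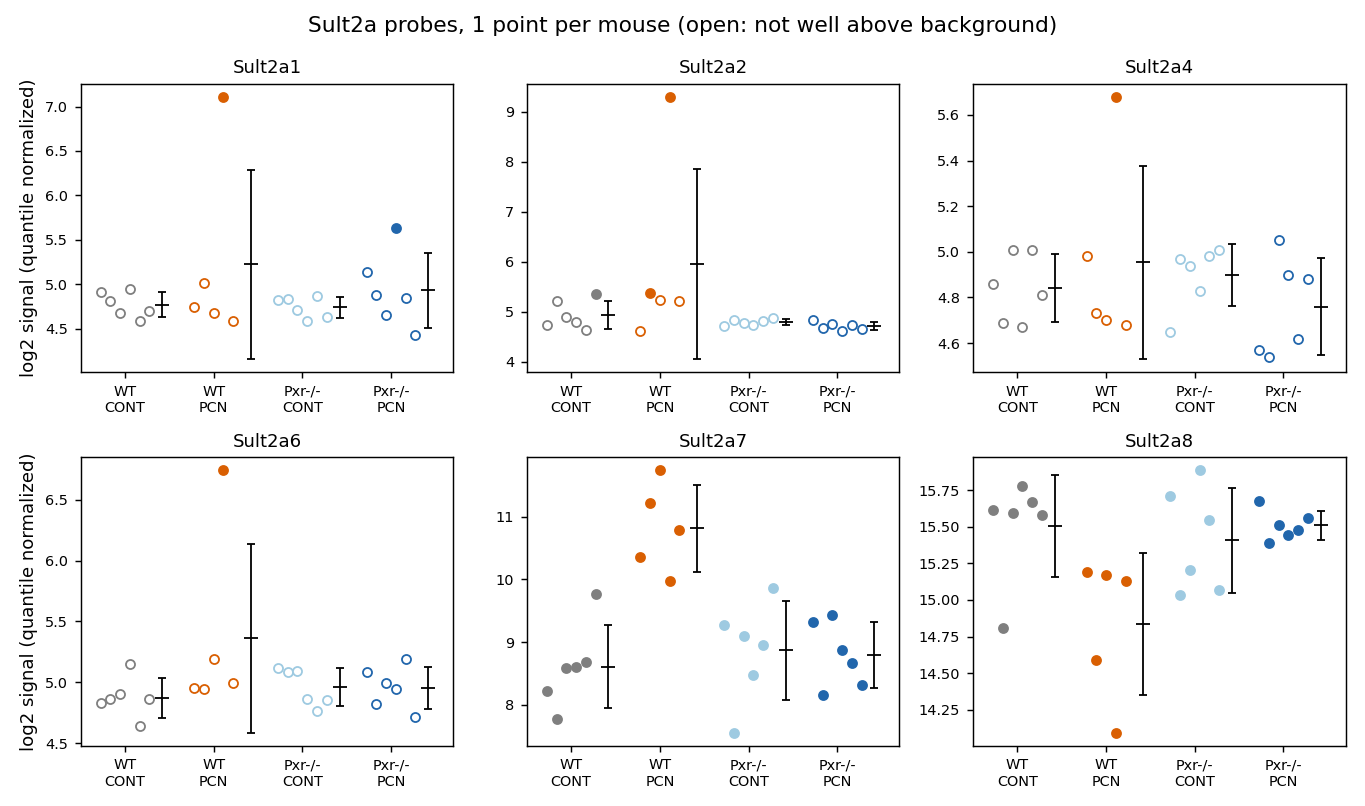
Quantile-normalized log2 signal (y axis) of 6 *Sult2a* genes in the 4 groups (x axis), 1 point per mouse, with mean and SD bars; open points are not well above background. WT PCN mouse 4 stands apart for *Sult2a1* (7.11), *Sult2a2* (9.30), *Sult2a4* (5.68) and the plotted *Sult2a6* probe (6.74). The other *Sult2a6* probes, not plotted, were at 4.67 and 4.54 in that mouse. For *Sult2a7* all 5 WT PCN mice lie above the WT CONT mice.

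*Sult1d1*, *Sult1e1* and *Sult1b1* lie together on chromosome 5. Within groups, after the batch was taken out, *Sult1d1* and *Sult1e1* varied together over the 23 mice, with Pearson r = 0.66, the highest of 28 pairs of genes. The points share their arrays, so this is a description. *Sult1c2* and *Papss2* had r = 0.54, although their group means were ordered differently. The lowest value, -0.40, was that of *Sult1a1* and *Sult5a1*. *Papss1* and *Papss2* were at -0.04.

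**Figure D4:**
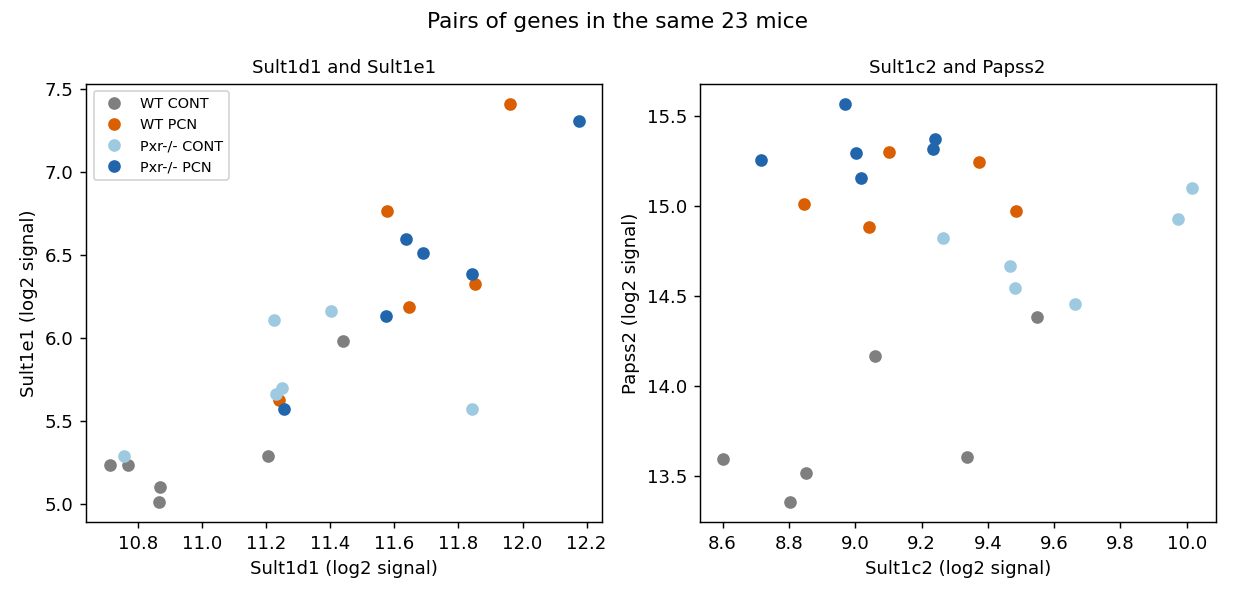
Log2 signals of 2 pairs of genes, each point 1 of 23 mice coloured by group (both axes are quantile-normalized log2 signals). *Sult1d1* and *Sult1e1* lie along one line across the groups (r = 0.66 within groups), while for *Sult1c2* and *Papss2* (r = 0.54 within groups) the groups are set apart from each other.

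The 250 bases before the start of *Sult1d1* and *Sult1e1*, and before the second *Papss2* start, are shown because these 3 genes were the ones called higher with PCN in WT mice. They are taken from RefSeq (build GRCm38.p6), 5′ to 3′ on the gene's strand. Capitals mark the nuclear receptor half-sites AGGTCA and AGTTCA on either strand.
*Sult1d1*, chr5:87569007-87569256, minus strand: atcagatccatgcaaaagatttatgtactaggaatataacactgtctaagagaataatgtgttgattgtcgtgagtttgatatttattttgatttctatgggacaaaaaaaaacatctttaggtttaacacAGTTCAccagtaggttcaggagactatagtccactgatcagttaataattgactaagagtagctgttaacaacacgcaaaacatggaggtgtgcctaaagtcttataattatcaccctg
*Sult1e1*, chr5:87591612-87591861, minus strand: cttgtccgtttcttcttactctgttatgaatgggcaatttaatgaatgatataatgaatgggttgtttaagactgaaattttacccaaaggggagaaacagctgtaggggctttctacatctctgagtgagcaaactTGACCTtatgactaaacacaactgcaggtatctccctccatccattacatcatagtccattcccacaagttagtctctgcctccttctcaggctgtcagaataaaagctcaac
*Papss2*, second start, chr19:32619755-32620004, plus strand: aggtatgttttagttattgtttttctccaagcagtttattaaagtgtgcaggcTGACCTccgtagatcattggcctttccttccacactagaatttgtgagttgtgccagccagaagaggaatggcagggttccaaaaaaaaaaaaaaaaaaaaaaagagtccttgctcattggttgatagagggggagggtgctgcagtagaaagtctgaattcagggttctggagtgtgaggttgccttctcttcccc
Windows were found for 9 of the 10 genes, 12 in all, and 4 of 12 held a half-site, against 24.2% of all 32851 windows. The first base of the half-site lies 119 bases before the start in *Sult1d1*, 113 in *Sult1e1* and 197 in *Papss2*. The first *Papss2* window held none and 1 of 2 *Sult1b1* windows held 3. Pairs of half-sites in the same direction 3 or 4 bases apart, or facing outwards 6 bases apart, were in 0 of the 12 windows. Over all windows they were in 0.0122%, 0.0244% and 0.00913%.

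Across all 23 mice, the genes whose batch-corrected pattern was most like that of *Papss2* were *Gstm6* (r = 0.91), *Afmid* (0.89) and *Igfbp2* (0.89). For *Sult1e1* they were *H3f3b* (0.85), *Unk* (0.85) and *Tmem87b* (0.83), and for *Sult1d1* they included *Sar1b* (0.84) and *Thnsl2* (0.83).

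The steps before and after sulfonation were described from lists of genes. Over all genes tested, 3.79% were called higher and 2.39% lower with PCN in WT mice. In *Pxr*-/- mice these shares were 1.42% and 0.86%. PAPS transporters and the phosphatases that clear its by-product PAP had 0 of 4 called in either direction in each of the 5 comparisons, with median changes of 0.06 in WT and 0.05 in *Pxr*-/- mice. Of 6 sulfate transporters 0 were called for PCN in either genotype. *Slc26a6*, an anion exchanger, was lower in *Pxr*-/- PCN than in WT PCN mice, with a difference of -0.81 (limma adjusted p = 4.58e-04). Of 6 genes that make sulfate from cysteine and sulfide, 1 rose in WT mice. This was *Ethe1*, a mitochondrial persulfide dioxygenase (0.85, adjusted p = 0.00945). Its WT CONT mice ran from 11.26 to 12.53 and its WT PCN mice from 12.32 to 12.67, and the groups overlapped through 1 WT CONT mouse. In *Pxr*-/- mice *Ethe1* changed by -0.10, and its PCN effects differed by 0.95, not called (adjusted p = 0.143). Without that WT CONT mouse, number 4, they differed by 1.125 and were called (adjusted p = 0.0399).

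Sulfatases remove sulfate, from lipids and glycans among others. In WT mice 1 of 13 tested rose and 2 fell, where 3.79% and 2.39% of all genes were called. In *Pxr*-/- mice 0 were called in either direction, where 1.42% of all genes were called higher and 0.86% lower. *Arsa*, which desulfates sulfatide, fell by 1.31 (limma adjusted p = 7.95e-08), from 12.14 to 12.45 in WT CONT to 10.75 to 11.10 in WT PCN mice, with no overlap. In *Pxr*-/- mice *Arsa* also fell, by 0.42 (95% interval of the change -0.647 to -0.195, adjusted p = 0.0238), under the fold threshold. The PCN effects on *Arsa* differed by -0.89 (95% interval -1.22 to -0.56, adjusted p = 0.00286). Within the washing batches this difference was -1.06 and -0.69, not called in either. *Arsg*, another lysosomal sulfatase, fell by 0.70, and *Sulf2*, which trims heparan sulfate outside the cell, rose by 1.70 (adjusted p = 6.78e-05). The WT groups of *Sulf2* overlapped through WT CONT mouse 2, at 9.88. *Sulf2* changed by 0.435 in *Pxr*-/- mice, and its PCN effects differed by 1.27, not called (adjusted p = 0.0737). Without WT CONT mouse 2 they differed by 1.53 (adjusted p = 6.66e-04). Without WT PCN mouse 3 the change of *Arsg* was -0.54 and under the fold threshold, as it was with the deposited values (-0.55). In *Pxr*-/- mice *Arsg* changed by -0.57 (adjusted p = 0.0207), just under the fold threshold, and was called without any 1 of *Pxr*-/- PCN mice 1, 2 or 6. Its PCN effects differed by -0.13 (95% interval -0.56 to 0.30, adjusted p = 0.829). Of 24 Golgi sulfotransferases 2 fell in WT mice, *Gal3st1*, which makes sulfatide (-0.84, adjusted p = 0.00731), and *Hs3st6*, a heparan sulfate sulfotransferase (-0.82, adjusted p = 8.41e-04). Their changes in *Pxr*-/- mice were 0.19 and -0.45. The difference of the PCN effects was called for neither (adjusted p = 0.0911 and 0.468). For *Gal3st1* it was called without *Pxr*-/- CONT mouse 6 (-1.18, adjusted p = 0.0402). The median change of that list was -0.04.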

How the data were processed

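Gene expression was measured in liver RNA of 23 mice on Agilent SurePrint G3 mouse arrays. Groups, replicate numbers and the 2 washing batches were taken from the labels. Per the file headers, the deposited scanner files are Agilent Feature Extraction (10.10.1.1) output and give linear intensity values of each spot, before any normalization across arrays. The authors also deposited log2 values, made from the median signal after filtering, correction for the washing batch and CrossNorm normalization. These were used as an alternative, and the exact filter and the way arrays were stacked are not given in the sources used here.

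Here the log2 median signal was taken, spots with an outlier flag were left out and spots of a probe were averaged. Probes had to lie well above background on over 50% of the arrays in 1 or more groups, which left 32087 of 56605 probes and 21056 genes, and signals were quantile normalized. Where several probes of a gene were kept, the brightest on average was used. Group and washing batch were fitted in limma (3.58.1, R 4.3.3), with Benjamini-Hochberg adjustment over all probes kept. Probe positions (mm9) were taken from the array files. Promoters came from RefSeq (GRCm38.p6) and were not joined to them.

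On simulated data with added log2 changes of 1 or 2 between WT groups, 95 and 97 of 100 changed probes were called, and 0 of 31805 unchanged ones. Noise was drawn independently for each probe, and PCN in WT mice was the only comparison simulated. Smaller changes, the genotype comparisons and the difference of the PCN effects were not simulated, so these counts do not speak to them. The number of arrays limits the precision. The alternatives were the deposited values, Agilent's processed signal, 75th percentile scaling, normexp background correction, other filters, no batch term, slide or replicate as a block, each washing batch alone, only the groups compared, the mean over probes, and each array left out. The named genes were all 10 members, the genes of the pathway lists called in any comparison, and the 3 genes most correlated with each of the 3 members with the largest PCN effect in WT mice, of which 1 is not reported here. Members and lists were chosen with earlier results of these data known.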

Additional observations from a re-analysis of the deposited data

Results flagged for a closer look

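In groups of 5 or 6 mice, 8 of 108 groups held 1 mouse far from the others of its group, and chance alone gives about 1 in 20. For *Sult1e1* this was WT CONT mouse 2, the highest of its group at a log2 signal of 5.98. The same mouse was the lowest of its group for *Sult2a8*, at 14.81. For *Sult2a1* it was WT PCN mouse 4, at 7.11, and for 1 *Sult3a1* probe *Pxr*-/- PCN mouse 4, at 5.04 and not well above background. The others were *Pxr*-/- CONT mouse 2 for *Sulf2* (9.73), WT CONT mouse 4 (12.53) and *Pxr*-/- PCN mouse 1 (12.47) for *Ethe1*, and WT CONT mouse 5 for *Slc26a6* (10.15), each the highest of its group.

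Among the tested genes of the sulfate pathway lists, the PCN effect differed between the genotypes for 2 by the limma interaction. The difference (WT minus *Pxr*-/-) was 2.31 for *Sult2a7* (adjusted p = 0.0198) and -0.89 for *Arsa* (adjusted p = 0.00286). These were 1 of 4 other cytosolic sulfotransferases and 1 of 13 sulfatases tested. In the other lists, with 4, 6, 6 and 24 genes tested, 0 were called. Over all genes tested, 0.807% were called with a difference above 0 and 0.242% below 0.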

How the results depend on the processing

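Counts of the 8 tested genes that were called changed as follows. For PCN in WT mice 3 were called, also with each array left out (3 to 3), but 1 within washing batch 2. For PCN in *Pxr*-/- mice 1 was called, 0 within washing batch 1 or 2 and 2 with the mean over probes. With 1 array left out there were 1 to 3. For the difference of the PCN effects 0 were called. This became 1, *Papss2*, with the deposited values, Agilent's processed signal (0.83, limma adjusted p = 0.0435), 75th percentile scaling (0.87, adjusted p = 0.0288) and the replicate block (0.71, adjusted p = 0.0487), and 0 to 2 with 1 array left out. It could not be fitted with only the groups compared. For genotype in control mice 1 was called, 0 within washing batch 2 and 1 to 2 with 1 array left out. For genotype under PCN 1 was called, 0 with only the groups compared or within washing batch 1 or 2, and 0 to 1 with 1 array left out. *Papss1* was then at -0.60 (adjusted p = 0.0923), -0.85 and -0.29.

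The signs that turned were of changes that were not called, before or after. With the deposited values, genotype under PCN was -0.15 for *Sult1a1*, -0.062 for *Sult1b1*, -0.24 for *Sult1d1*, -0.11 for *Sult5a1* and -0.066 for *Papss2*, and PCN in WT mice was 0.053 for *Papss1*. These values shift the median of all probes by -0.18 for genotype under PCN, -0.11 for genotype in control and 0.11 for PCN in WT mice. Under the processed signal, genotype under PCN was -0.016 for *Sult1d1* and 0.004 for *Sult1e1*, and genotype in control 0.022 for *Sult2a8*. Under 75th percentile scaling it was -0.018 for *Sult1d1* and 0.013 for *Sult1e1*, and with the mean over probes -0.035 for *Sult1d1*. In washing batch 1, PCN in *Pxr*-/- mice was 0.71 for *Sult2a7* and 0.094 for *Ethe1*, the interaction 0.25 for *Arsg*, genotype in control -0.22 for *Sult1c1* and -0.068 for *Sult2a7*, and genotype under PCN 0.10 for *Sult1e1*. In washing batch 2, PCN in *Pxr*-/- mice was -0.11 for *Gal3st1* and -0.019 for *Sult1c1*, the interaction -0.055 for *Sult1b1* and -0.17 for *Papss1*, genotype in control 0.087 for *Gal3st1* and genotype under PCN -0.12 for *Sult1d1*. The replicate block moved the interaction of *Sult1a1* to -0.001. With 1 array left out, the range took in 0 for genotype under PCN in *Sult1d1* (-0.064 to 0.128), *Sult1e1* (-0.254 to 0.154) and *Sult5a1* (-0.054 to 0.264), for the interaction in *Sult1a1* (-0.062 to 0.153), *Sult1b1* (-0.004 to 0.213) and *Arsg* (-0.247 to 0.025), for PCN in WT mice in *Papss1* (-0.201 to 0.002), and for PCN in *Pxr*-/- mice in *Sult2a7* (-0.313 to 0.103) and *Ethe1* (-0.239 to 0.087). The cause of these changes was not tested.

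Same-numbered mice were not treated as pairs in the main fit. The mean correlation of their deviations was 0.06 over 33 pairs (-0.17 to 0.61), with 13 above 0.1. Over 165 pairs with different numbers it was -0.01 (-0.30 to 0.36), with 40 above 0.1. Of 23 arrays, 7 correlated best with their own number. Of the members' calls, the replicate block changed that of *Papss2* in the interaction.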

Other observations

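Among the other cytosolic sulfotransferases, 4 of the 13 listed genes could be tested. Between the genotypes under PCN, 2 of the 4, *Sult1c1* and *Sult2a8*, were called higher in *Pxr*-/- mice and 1, *Sult2a7*, lower. Over all genes tested, 0.731% were called higher and 1.36% lower. *Sult2a7* differed by -2.05 (limma adjusted p = 0.00153). For *Sult1c1* the WT PCN mice were at 6.67, 6.78, 6.79, 6.82 and 6.63, and all 6 *Pxr*-/- PCN mice, at 7.01 to 7.78, were above them. The difference of 0.58 lay at the fold threshold (limma adjusted p = 0.00584). It was no longer called with the deposited values (0.41) or without any 1 of 9 arrays. *Sult2a8* was called in the same comparison (0.69, adjusted p = 0.0315) and lost without any 1 of 5 arrays, those of WT PCN mice 2 or 4 and *Pxr*-/- PCN mice 1, 3 or 6 (0.49 to 0.71, adjusted p = 0.0525 to 0.0960). The *Sult2b1* probe was well above background on 1 array, that of WT CONT mouse 5, at 7.83.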
